A study of Mus musculus with 7 samples.

Results

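The nuclear genes of the mitochondrial respiratory chain and ATP synthase were examined for binding of the vitamin D receptor (VDR), the nuclear receptor through which vitamin D acts on chromatin. Members were the protein-coding genes of the mm9 annotation whose symbols start with Ndufa, Ndufb, Ndufc, Ndufs, Ndufv, Sdha to Sdhd, Uqcr, Cox4 to Cox8 or Atp5, pseudogenes excluded. The rule found 92 genes of 22231 protein-coding genes. By symbol alone, 38 were counted with complex I, 4 with complex II, 8 with complex III, 18 with complex IV (cytochrome c oxidase) and 17 with ATP synthase. Whether each of these encodes a subunit was not checked. The symbol rule also took in 4 complex I assembly factors (Ndufaf1 to Ndufaf4), 2 complex II assembly factors (Sdhaf1 and Sdhaf2) and Cox4nb, the neighbour of Cox4i1, which encodes no subunit.

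Binding was measured by ChIP-seq, sequencing of DNA that precipitates with an antibody, here against VDR, from epithelial cells released with EDTA from the proximal small intestine. The vehicle group was 3 libraries from wild-type mice aged 8 weeks that received vehicle. The hormone group was 3 libraries from wild-type mice of the same age treated with 1,25(OH)2D3, the active hormone, at 10 ng per g of body weight. In both groups tissue was collected after 1 h, and all mice ate the same standard chow. The labels do not say that each library came from a separate mouse, so every spread given here is a spread between libraries and may be technical. A single input library, labelled with the hormone dose, served as the reference for all 6 peak lists.

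Complexes I and II pass electrons from NADH and succinate to ubiquinone, complex III passes them to cytochrome c, and complex IV passes them to oxygen. Proton pumping by complexes I, III and IV drives ATP synthase. The absorptive cells of the small intestine depend on this ATP for sodium-coupled and calcium transport, and nuclear respiratory factors and their coactivators are known regulators of the nuclear genes of the chain.

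The files hold the position of each peak and no usable height, so a gene either had a peak in a library or did not. A promoter peak here is a peak whose centre lies within 1 kb of any annotated transcription start of the gene. Replicate 3 of each group was sequenced more deeply, at 68560701 tags for vehicle and 66524392 for hormone, against 15991198 to 19733260 in the other 4 libraries. The number of peaks ran from 8756 to 48425 in the vehicle libraries and from 25510 to 41722 in the hormone libraries. Tags inside peaks made up 2.58 to 8.10% of all tags with vehicle and 11.9 to 19.0% with hormone, so this measure of enrichment moved with the groups; its part in the differences between groups was not tested. Of 10 epithelial marker genes, 8 had a promoter peak in some library, and of 10 markers of immune, stromal, endothelial and neuronal cells, only Pecam1 did, in 2 vehicle libraries and no hormone library. Peaks are not expression, so these counts check the tissue label only loosely.

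Promoter peaks at respiratory chain genes were more frequent in every hormone library than in any vehicle library. Vehicle replicates 1, 2 and 3 had such a peak at 13, 17 and 29 of the 92 genes, and hormone replicates 1, 2 and 3 at 37, 48 and 51. As a share of the 92 genes this was 21.4% ± 9.05 (SD, n = 3) with vehicle and 49.3% ± 8.01 (SD, n = 3) with hormone, a difference of 27.9 percentage points. The deep vehicle replicate 3 (31.5%) stood below hormone replicate 1 (40.2%), which had 17152461 tags. When each list was shortened to its first 8756 peaks, the length of the shortest, the difference was 11.6 percentage points (19.2% ± 7.86 against 30.8% ± 1.66, SD, n = 3), and over all genes the shares were then 6.73% ± 1.25 and 8.29% ± 0.273.

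All protein-coding genes differed in the same direction, and in the full lists by a like ratio. Over all 22231 genes the share was 9.43% ± 4.20 with vehicle and 20.6% ± 3.91 with hormone (SD, n = 3), a ratio of 2.19, beside 2.31 for the respiratory chain. The share of respiratory chain genes divided by that of all genes was 2.53, 2.11 and 2.26 in vehicle replicates 1 to 3 and 2.41, 2.52 and 2.26 in hormone replicates 1 to 3. These ratios overlapped between the groups (2.30 ± 0.210 and 2.40 ± 0.130, SD, n = 3). With lists of equal length they were 2.53, 2.33 and 3.50 with vehicle and 4.01, 3.61 and 3.54 with hormone, and the groups did not overlap. Respiratory chain promoters thus carried peaks at more than the general rate in each of the 6 libraries, and whether that factor separated the groups depended on the length of the lists. The 76 mitochondrial ribosomal protein genes had shares of 21.1% ± 9.21 and 43.0% ± 10.6, and the 94 cytosolic ribosomal protein genes 18.4% ± 10.9 and 30.1% ± 7.84 (SD, n = 3).

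**Figure D1:**
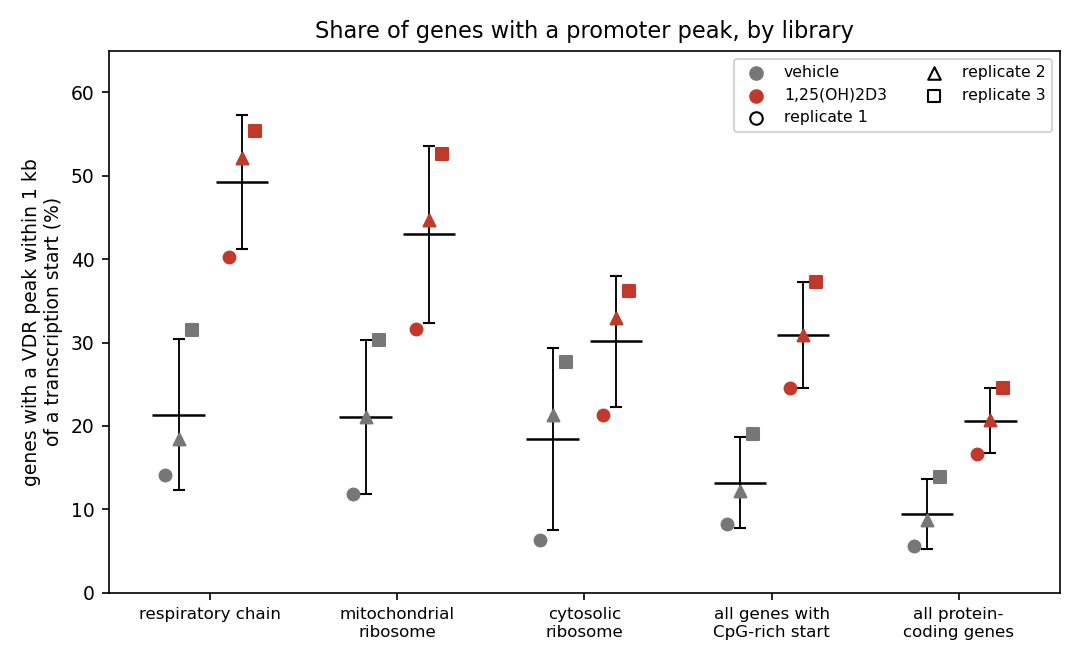
Percent of genes with a VDR peak within 1 kb of a transcription start (y axis) in 5 gene sets (x axis); each point is 1 library (grey vehicle, red hormone, 1,25(OH)2D3, shape by replicate), and bars are the mean ± SD of 3 libraries. Respiratory chain genes lie between 14.1 and 31.5% with vehicle and between 40.2 and 55.4% with hormone, and the shares of all protein-coding genes are also higher in every hormone library.

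Over the 6 libraries, 63 of the 92 genes had a promoter peak at least once, where 34.0% of all protein-coding genes did. A promoter peak in all 3 hormone libraries was found at 32 genes (background 12.6% of all genes), and one in all 3 vehicle libraries at 6 genes (background 2.85%). The same 6 genes had it in all 6 libraries (background 2.63%). A peak in every hormone library and no vehicle library, here called hormone-only, was found at 8 genes (background 3.53%), and the opposite pattern at 0 genes (background 0.0135%). Counting libraries gene by gene, 49 genes had the promoter peak in more hormone than vehicle libraries, 39 in equal numbers, including the 29 with none, and 4 in more vehicle libraries. In percent, 53.3 had more hormone and 4.35 more vehicle libraries, beside 23.9 and 4.80 of all protein-coding genes. Among the 4, Ndufs3, a core subunit of complex I, the assembly factor Ndufaf2, and Cox7b of complex IV each had it in a single vehicle library and no hormone library.

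Promoters of these genes differ from the genome at large in base composition, and CpG-rich genes as a whole also had promoter peaks at a higher rate. The observed-to-expected CpG ratio within 500 bp of the outermost start had a median of 0.732 at the 92 genes and 0.550 at all genes, and 75 of the 92 (81.5%) had a CpG-rich start (ratio of at least 0.6), beside 45.7% of all genes. Among the 10164 protein-coding genes with a CpG-rich start, 49.9% had a promoter peak in some library, 18.4% in all 3 hormone libraries, 3.68% in all 6 and 5.56% in all 3 hormone and no vehicle library. The 75 CpG-rich respiratory chain genes gave 57, 29, 5 and 8 genes for these calls in the same order. Their share divided by that of all CpG-rich genes was 1.68 ± 0.137 with vehicle and 1.79 ± 0.107 with hormone (SD, n = 3), below the 2.30 and 2.40 found against all genes.

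Many of the promoters are shared with another gene, so a peak there cannot be assigned to either neighbour. Sharing was judged by gene: at 33 of the 92 genes (35.9%) another protein-coding gene started within 1 kb of at least 1 annotated start, beside 13.3% of all genes. Of these 33, 28 had a promoter peak in some library (84.8%) and 6 were hormone-only (18.2%), beside 51.6% and 5.18% of all genes with a shared promoter. Of the 59 with a promoter of their own, 35 had a peak in some library (59.3%) and 2 were hormone-only (3.39%), the latter at about the 3.53% of all genes. The hormone-only regions at Ndufa4 (chr6:11857424-11857759), Ndufa11 (chr17:56857029-56857489), Ndufa13 (chr8:72426716-72427084), Uqcrq (chr11:53243862-53244188) and Atp5c1 (chr2:10001771-10002204) also lie within 1 kb of a start of Phf14, Vmac, Tssk6, Gdf9 and Kin, in that order. The last of the 6, Atp5d, has a start within 1 kb of a start of Dos. Its hormone-only region lies elsewhere, at an internal start, with no start of another gene within 1 kb. Genes with a peak in all 3 hormone libraries had a CpG-rich start in 90.6% and 16 of these 32 a shared one, and the 29 genes without any promoter peak had them in 62.1% and 17.2%.

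**Figure D2:**
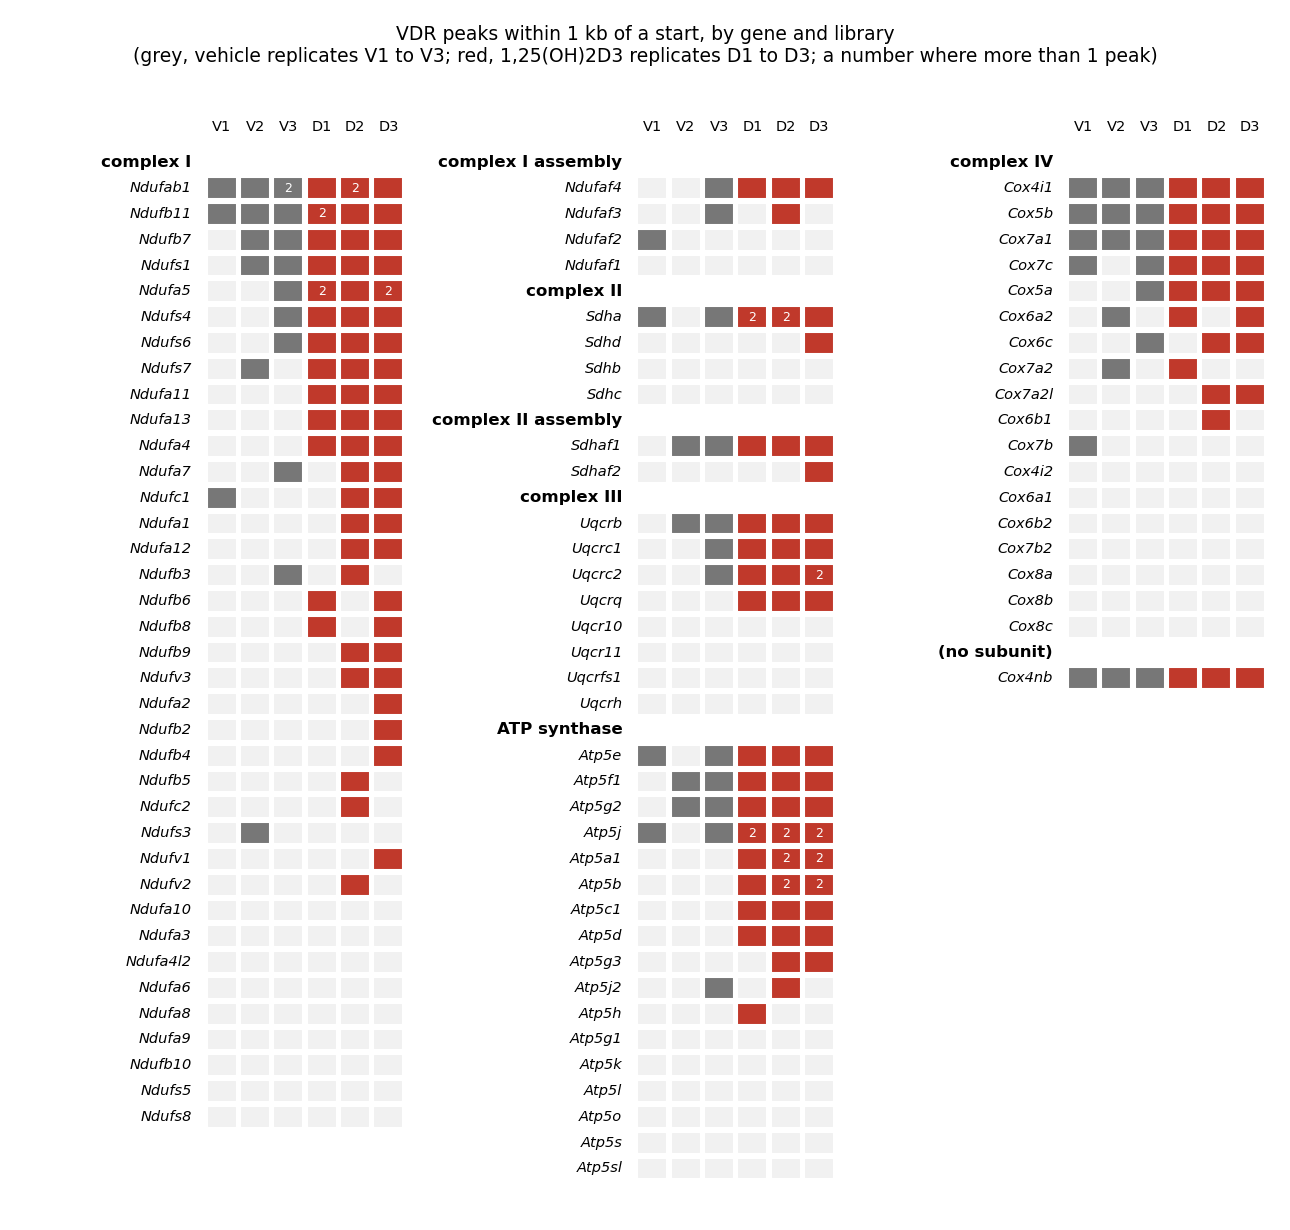
Each row is a respiratory chain gene, grouped by complex, and each column a library (V1 to V3 vehicle, D1 to D3 hormone, 1,25(OH)2D3); a filled square marks a VDR peak within 1 kb of a start, with the number where there was more than 1, and 1 gene is not shown. Squares filled in all 6 columns are limited to 6 genes, and 29 genes have none filled.

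Complex I takes electrons from NADH through a flavin and a chain of iron-sulfur clusters. Its 38 genes had promoter peaks at 3, 7 and 10 genes in vehicle replicates 1 to 3 and at 13, 21 and 24 in hormone replicates 1 to 3. The groups did not overlap (17.5% ± 9.24 and 50.9% ± 15.0, SD, n = 3). Neither did they over all genes (9.43% ± 4.20 and 20.6% ± 3.91, SD, n = 3). Of the 38, 11 had the peak in all 3 hormone libraries (28.9%), beside 12.6% of all genes. Over all genes 2.63% had it in all 6 libraries and 3.53% were hormone-only. Ndufab1, the mitochondrial acyl carrier protein that is also a subunit here, and the X-linked accessory subunit Ndufb11 had it in all 6 libraries. Ndufa4, now usually counted with complex IV, and the accessory subunits Ndufa11 and Ndufa13 were hormone-only. Ndufs1, the largest iron-sulfur subunit, and Ndufb7 added vehicle replicates 2 and 3, Ndufs7 added vehicle replicate 2, and Ndufa5, Ndufs4 and Ndufs6 added the deep vehicle replicate 3. Ndufv1, which binds NADH and flavin, had it in hormone replicate 3 alone, and Ndufv2 in hormone replicate 2 alone. These and the other genes with a promoter peak in some but not all hormone libraries, or in vehicle only, came to 18, each in 1 to 3 libraries. No promoter peak was called at Ndufa3, Ndufa4l2, Ndufa6, Ndufa8, Ndufa9, Ndufa10, Ndufb10, Ndufs5 and Ndufs8. The assembly factor Ndufaf4 had the peak in vehicle replicate 3 and all 3 hormone libraries, Ndufaf3 in vehicle replicate 3 and hormone replicate 2, and Ndufaf1 in none.

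Complex II, which is also succinate dehydrogenase of the citrate cycle, has no mitochondrially encoded subunit. The flavoprotein gene Sdha had a promoter peak in vehicle replicates 1 and 3 and in all 3 hormone libraries. Its region chr13:74487389-74487700, in vehicle replicate 3 and all 3 hormone libraries, is centred 58 bp past a start, in a promoter shared with Ccdc127. The peak of vehicle replicate 1 lies in another region, chr13:74462378-74462735, at an internal start, which was also in hormone replicates 1 and 2. Sdhd, a membrane anchor that shares its promoter with Timm8b, had the peak in hormone replicate 3 only. Sdhb, the iron-sulfur subunit, and Sdhc, the other anchor, had none. The assembly factor Sdhaf1 had it in vehicle replicates 2 and 3 and all 3 hormone libraries, and Sdhaf2 in hormone replicate 3 only.

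In complex III the same number of genes, 4 of 8, had a promoter peak in each hormone library, beside 0, 1 and 3 genes in vehicle replicates 1 to 3. They were Uqcrc1 and Uqcrc2, the core proteins, and the small subunits Uqcrb and Uqcrq. Over all genes 12.6% had the peak in all 3 hormone libraries, and 3.53% were hormone-only. Of the 4 genes, Uqcrq alone had none with vehicle, Uqcrc1 and Uqcrc2 added vehicle replicate 3, and Uqcrb added vehicle replicates 2 and 3. Uqcrfs1, the Rieske iron-sulfur protein, the hinge protein gene Uqcrh, Uqcr10 and Uqcr11 had no promoter peak in any of the 6 libraries.

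Complex IV showed the smallest gap between the groups among the larger complexes. Its 18 genes had promoter peaks at 5, 5 and 6 genes with vehicle and at 7, 8 and 8 with hormone (29.6% ± 3.21 and 42.6% ± 3.21, SD, n = 3). No gene of complex IV was hormone-only in the sense of all 3 hormone libraries, a pattern found at only 3.53% of all genes. Cox5b, Cox4i1 and Cox7a1 had the promoter peak in all 6 libraries (background 2.63% of all genes). Cox7c had it in all but vehicle replicate 2, and Cox5a in vehicle replicate 3 and all 3 hormone libraries. Cox6c had it in vehicle replicate 3 and hormone replicates 2 and 3, and Cox7a2l in hormone replicates 2 and 3. Cox7b2 had none. The differences between complexes were not tested.

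Where complex IV genes exist as tissue forms, the forms differed in their peaks for subunits 4, 6a, 6b and 7a and not for subunit 8. Cox7a1, the form of subunit VIIa known from heart and skeletal muscle, had a promoter peak in all 6 libraries, and its widely expressed partner Cox7a2 had one in vehicle replicate 2 and hormone replicate 1. For subunit 4, the widely expressed Cox4i1 had the peak in all 6 and Cox4i2, known from lung, in none. Cox6a2, the muscle form, had it in vehicle replicate 2 and hormone replicates 1 and 3, and its partner Cox6a1 in none. Cox6b1 had it in hormone replicate 2, and the testis form Cox6b2 in none. Cox8a, Cox8b and Cox8c had no promoter peak in any library. Which form the tissue uses cannot be read from these files.

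ATP synthase had promoter peaks at 2, 2 and 5 of 17 genes in vehicle replicates 1 to 3 and at 9, 10 and 9 in hormone replicates 1 to 3 (17.6% ± 10.2 and 54.9% ± 3.40, SD, n = 3). Genes of the catalytic F1 head, a grouping made after the values were seen, all had the peak in every hormone library (background 12.6% of all genes). Of these, Atp5a1 and Atp5b (the alpha and catalytic beta subunits), Atp5c1 (the gamma shaft) and Atp5d (delta) had none with vehicle. Over all genes 3.53% were hormone-only in this way. Atp5e (epsilon) had a promoter peak in vehicle replicates 1 and 3 as well. Among the remaining genes, Atp5f1 and Atp5g2 had it in vehicle replicates 2 and 3 and all 3 hormone libraries. Atp5j, a peripheral stalk subunit, had it in vehicle replicates 1 and 3 and all 3 hormone libraries. Atp5g3, which encodes the same ring subunit as Atp5g2, had it in hormone replicates 2 and 3, Atp5h in hormone replicate 1, and Atp5j2 in vehicle replicate 3 and hormone replicate 2. Atp5g1, Atp5k, Atp5l, Atp5o, Atp5s and Atp5sl had none.

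The peaks of different libraries overlapped at most of these promoters, and merging those that shared at least 1 bp gave 74 regions. Of the 74, 5 were in all 6 libraries, 33 in all 3 hormone libraries, 10 in all 3 hormone and no vehicle library, and 16 in a single hormone library. The order of each deposited list gives the only rank; 100 is the first peak of a list, and what the order follows is not stated. The median region of the respiratory chain stood at 72.5, and the median promoter region of all genes at 58.3. Highest by this mean list position among the regions of all 6 libraries was that of Cox7a1 (98.7), followed by Cox5b (94.7), Cox4i1 with Cox4nb (73.1), Ndufab1 (70.0) and Ndufb11 (38.2). Among the hormone-only genes, the regions of Atp5d (95.7), Atp5b (83.0) and Uqcrq (81.8) stood highest.

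The Cox7a1 and Cox5b regions, with the highest list positions of the 5 found in every library, lie directly upstream of genes of complex IV, and their reference sequence is shown because these promoters were bound in every library. The Cox7a1 region, chr7:30968899-30969195 on mm9, is centred at -142 bp from the start (negative is upstream), and the Cox5b region, chr1:36748016-36748336, is centred at -152 bp. Printed are the bases of each up to the transcript, on the plus strand, which is the strand of both genes: chr7:30968899-30969189 and chr1:36748032-36748331. Capitals mark the hexamers AGGTCA and GGTTCA on either strand and the hexamer pair closest to DR3, the element known for VDR, in which 3 bases part 2 repeated hexamers. In both, the closest pair misses the DR3 pattern at 2 of its 12 defined positions.
Cox7a1: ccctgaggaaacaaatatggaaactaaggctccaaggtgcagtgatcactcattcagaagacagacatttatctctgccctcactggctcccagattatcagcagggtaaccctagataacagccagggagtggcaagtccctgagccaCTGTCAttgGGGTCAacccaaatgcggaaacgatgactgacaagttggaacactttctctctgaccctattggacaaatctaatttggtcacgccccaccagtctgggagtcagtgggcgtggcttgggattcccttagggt
Cox5b: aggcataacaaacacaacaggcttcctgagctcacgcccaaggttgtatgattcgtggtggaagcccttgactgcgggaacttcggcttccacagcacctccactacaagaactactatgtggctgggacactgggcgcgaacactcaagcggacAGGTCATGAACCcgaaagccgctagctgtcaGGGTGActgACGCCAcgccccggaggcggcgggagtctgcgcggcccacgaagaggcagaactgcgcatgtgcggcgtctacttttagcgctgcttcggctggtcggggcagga
The Cox7a1 stretch holds neither exact hexamer, while in the Cox5b stretch an AGGTCA is followed directly by a reversed GGTTCA. The start of Cox7a1 is CpG-poor, with a CpG ratio of 0.258, and that of Cox5b is CpG-rich at 0.785.

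A hormone-only region is shown for contrast. At Atp5b, the gene of the catalytic subunit, the region chr10:127519886-127520210 is centred at -275 bp from the start, within an intron of the neighbouring gene Baz2a. It was in all 3 hormone libraries and no vehicle library, and its closest pair misses DR3 at 2 positions. The plus strand, which is that of the gene, is printed for chr10:127519911-127520210, with capitals as before.
Atp5b: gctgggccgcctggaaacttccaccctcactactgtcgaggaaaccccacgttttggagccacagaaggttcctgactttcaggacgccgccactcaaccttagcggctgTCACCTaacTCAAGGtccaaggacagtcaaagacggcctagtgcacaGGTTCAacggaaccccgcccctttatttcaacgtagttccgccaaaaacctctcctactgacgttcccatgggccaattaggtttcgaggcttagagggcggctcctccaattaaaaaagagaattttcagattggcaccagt
The pair closest to DR3 is on the minus strand here, so it reads reversed in the printed strand, and the exact GGTTCA stands apart from it.

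Direct repeats close to the DR3 pattern were more frequent in the respiratory chain regions than in promoter regions in general. In the 300 bases around the region centre, 16 of 74 regions (21.6%) had a pair with at most 1 mismatch, and so did 13.7% of the 8940 promoter regions of all genes. Among regions in all 3 hormone libraries the counts were 12 of 33 (36.4%) beside 21.7% of 2744. The difference was not tested, and a pair is a match of letters, not a measured site. Regions with 0 mismatches numbered 4, at Uqcrq, Atp5b (a second region, at an internal start), Atp5e and Atp5j. These pairs are printed with 7 bases on each side, on the strand where the repeat reads forward, the hexamers in capitals.
Uqcrq, chr11:53243915-53243943, minus strand: tggcctaAGGTCActtGGGTGActccaac
Atp5b, chr10:127525390-127525418, minus strand: aggggcaGGGTCAgtcAGGTCAtcagcag
Atp5e, chr2:174289157-174289185, plus strand: tgggaaaAGGTCActaAGGTCAcacttga
Atp5j, chr16:84829641-84829669, minus strand: gccagccAGGTCAgccAGTTCAtgggctc
Uqcrq and Atp5j had these regions in all 3 hormone and no vehicle library, Atp5b in hormone replicates 2 and 3, and Atp5e in all 3 hormone libraries and vehicle replicates 1 and 3. The mean list position was 81.8 at Uqcrq and 89.8 at Atp5e but 17.3 at Atp5j, so an exact pair was found at both ends of the lists.

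Pairs with 1 mismatch are shown for some of the genes named above. Atp5d was highest in the lists among the hormone-only regions, and Cox4i1 and Ndufab1 were present in all 6 libraries. Cox5a and Uqcrc1 were present in vehicle replicate 3 and all 3 hormone libraries. Uqcrc2 and Ndufs6 also had a pair with 1 mismatch in a region of these same libraries and are not printed.
Atp5d, chr10:79605413-79605441, plus strand: ttgtattAGGTCAtttGTTTCAtccccat
Cox4i1, chr8:123192618-123192646, plus strand: ggtgacaGGGTCAtccAGGTCGcctgcgg
Ndufab1, chr7:129245060-129245088, minus strand: cctgcagGGGTGAtggGGTACAcggctag
Cox5a, chr9:57368880-57368908, plus strand: ttcactaCGGTCAcccGGGTCAtcggacc
Uqcrc1, chr9:108838888-108838916, plus strand: agtggggAGGTCGcggGGGTCAgggccgt
The Cox4i1 region, chr8:123192301-123192789, lies in an intron, 336 bp past the start of Cox4i1, in the promoter that it shares with Cox4nb. The Atp5d region, chr10:79605223-79605523, is centred 257 bp past an internal start of that gene, and the Cox5a region, chr9:57368710-57369026, at -168 bp from its start.

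The single hexamer AGGTCA was the more frequent feature. It was found, on either strand, in 39 of 74 respiratory chain regions (52.7%) and in 25.3% of all promoter regions. Longer forms were searched after these values were seen: AAGGTCA, which contains AGGTCA, was in 23 regions (31.1%) beside 8.94% of all, and TCAAGGTCA, which contains both, in 5 (6.76%) beside 0.906%. These are the letters of the extended single-hexamer element that some orphan nuclear receptors are known to bind as monomers. Of the 5 regions with TCAAGGTCA, 3 are printed with 10 bases on each side, the match in capitals.
Atp5j, chr16:84836619-84836647, minus strand: catagcaagtTCAAGGTCAgccaggctag
Ndufv2, chr17:66450510-66450538, minus strand: cctaacttagTCAAGGTCAggaaggcgat
Sdhd, chr9:50411900-50411928, plus strand: tttcgagggcTCAAGGTCActctacaacc
The Atp5j region was in vehicle replicates 1 and 3 and all 3 hormone libraries, and those of Ndufv2 and Sdhd were in a single hormone library each.

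Other promoter motifs were counted in the same windows on both strands. The letters AAGATGGCG of the YY1 element were in 9 regions (12.2%) beside 1.55% of all promoter regions, and GCGCATGCG of the NRF1 element in 3 (4.05%) beside 0.906%. CCGGAAGT of the ETS family was in 4.05% beside 3.64%, GGGCGG of SP1 in 43.2% beside 34.7%, CCAAT in 25.7% beside 30.3%, and GGTTCA in 13.5% beside 16.3%. In the 300 bases from 250 upstream to 50 downstream of the outermost start of each gene, bound or not, NRF1 letters were at 8 of 92 genes (8.70%) beside 2.11% of all protein-coding genes, YY1 letters at 6 (6.52%) beside 1.84%, and AGGTCA at 20 (21.7%) beside 14.4%. Over the CpG-rich genes alone the shares were 4.02% for NRF1, 3.27% for YY1 and 9.87% for AGGTCA. Among the 29 genes without a promoter peak, NRF1 letters were at 4 (13.8%), YY1 letters at 2 (6.90%) and AGGTCA at 5 (17.2%). Among the 32 genes with a promoter peak in all 3 hormone libraries, these letters were at 4 (12.5%), 1 (3.1%) and 8 (25.0%). These counts are small, and the differences were not tested.

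Most promoter peaks, which were chosen for a centre within 1 kb of any annotated start, lay within 250 bp of one in 5 of the 6 libraries. The same share over all genes was not counted. Over 75 pairs of a region and its gene, with the region of Cox4i1 and Cox4nb counted for each, the centre had a median position of 1 bp from the nearest annotated start, and 52 (69.3%) were within 250 bp. Single promoter peaks were also paired with their genes, and a peak at Cox4i1 and Cox4nb again counted for each. Of these pairs, 71.5% of 151 in the hormone libraries and 68.3% of 60 in the vehicle libraries were within 250 bp. Vehicle replicate 1 had the lowest share, 46.2% of 13 pairs, and vehicle replicates 2 and 3 had 70.6% and 76.7%. Region centres fell in an intron at 29, in a UTR at 20, between genes at 11, in a coding exon at 9 and in another exon at 5 of the 74 regions.

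**Figure D3:**
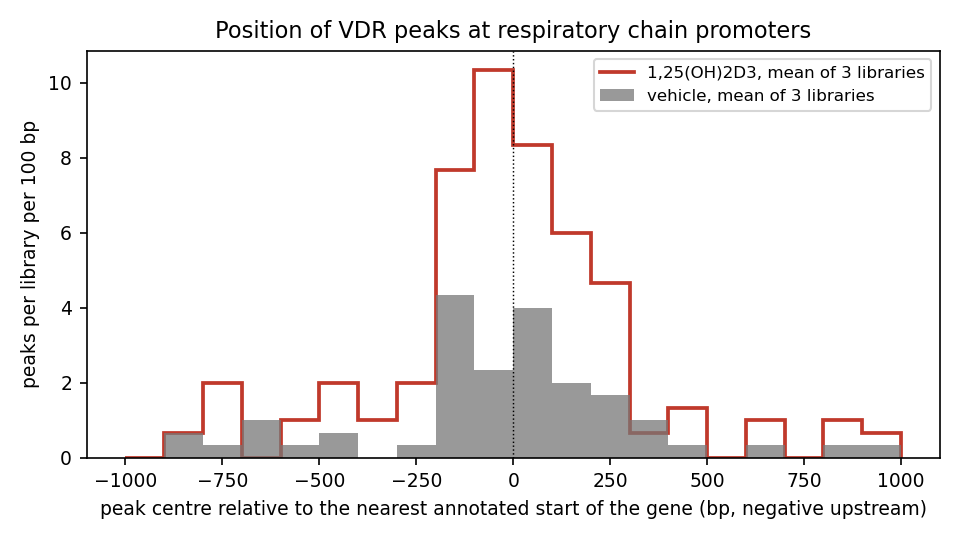
Mean number of VDR peaks per library in each 100 bp (y axis) by the distance of the peak centre from the nearest annotated start of a respiratory chain gene (x axis, bp, negative upstream); red line, 3 hormone libraries, 1,25(OH)2D3; grey fill, 3 vehicle libraries. Only peaks with a centre within 1 kb of a start were taken, and a peak at Cox4i1 and Cox4nb counts once for each gene. Of these pairs of a peak and its gene, 71.5% with hormone and 68.3% with vehicle were within 250 bp of the start.

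Peaks within 50 kb of the gene body widen the view to distal elements. A respiratory chain gene had on average 1.35, 1.88 and 3.62 such peaks in vehicle replicates 1 to 3 and 3.47, 3.91 and 4.80 in hormone replicates 1 to 3. Vehicle replicate 3 lay above hormone replicate 1, so the groups overlapped (2.28 ± 1.19 and 4.06 ± 0.681, SD, n = 3). All genes had 1.94 ± 1.33 and 3.21 ± 0.705. The ratio of respiratory chain to all genes was 1.50, 1.26 and 1.05 with vehicle and 1.34, 1.28 and 1.21 with hormone, nearer to 1 than at the promoters. With lists of equal length the difference of 1.78 peaks per gene came to 0.178.

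By gene, the mean count was higher with hormone at 78 of the 92 genes, lower at 10 and equal at 4. Of all 22231 genes, 14149 were higher, 4533 lower and 3549 equal. The median difference was 1.67 peaks beside 0.667 over all genes. Every hormone library exceeded every vehicle library at 26 genes (background 16.0%), and the reverse was seen at 0 genes (background 0.045%). With 3 libraries against 3 the smallest p of the exact two-sided permutation test is 0.1, so no single gene could pass 0.05. Vehicle replicate 3 was the highest vehicle library at 69 of the 92 genes (15285 of all 22231), and without it 62 genes in place of 26 had no overlap. With lists of equal length 5 had none. The share of all genes without overlap was not counted for either setting. Windows of Ndufs8 and Ndufv1, and of Cox4nb and Cox4i1, overlap, so these pairs count some peaks in common.

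The largest differences were at Ndufa13, Ndufc2, Ndufv1, Sdhd and Ndufc1. Ndufa13 had 0, 0 and 3 peaks in vehicle replicates 1 to 3 and 7, 6 and 7 in hormone replicates 1 to 3. Ndufc2, an accessory subunit, had 1, 2 and 3 against 5, 8 and 7. At neither gene did the groups overlap. Ndufv1 had 4, 7 and 4 against 8, 9 and 12, and Sdhd, with the most peaks of complex II, had 5, 8 and 7 against 10, 11 and 13. Ndufc1, another accessory subunit, had 2, 0 and 5 against 6, 5 and 9, and its groups met at 5. Cox8c, the testis form of subunit VIII, had 0 in each vehicle library and 2, 3 and 2 with hormone.

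The other end was held by genes whose vehicle peaks came mostly from the deep vehicle replicate 3. Ndufa9, an accessory subunit near the ubiquinone site, had 0, 0 and 4 peaks with vehicle and 0 in each hormone library. Ndufb2 had 0, 0 and 4 against 0, 0 and 1, and Cox7b2 had 0, 0 and 2 against 0 in each. Cox7b had 2, 1 and 5 against 1, 0 and 3, and Ndufaf1 had 0, 1 and 3 against 0, 1 and 1. In all 5 genes the groups overlapped, and the highest count was that of vehicle replicate 3.

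**Figure D4:**
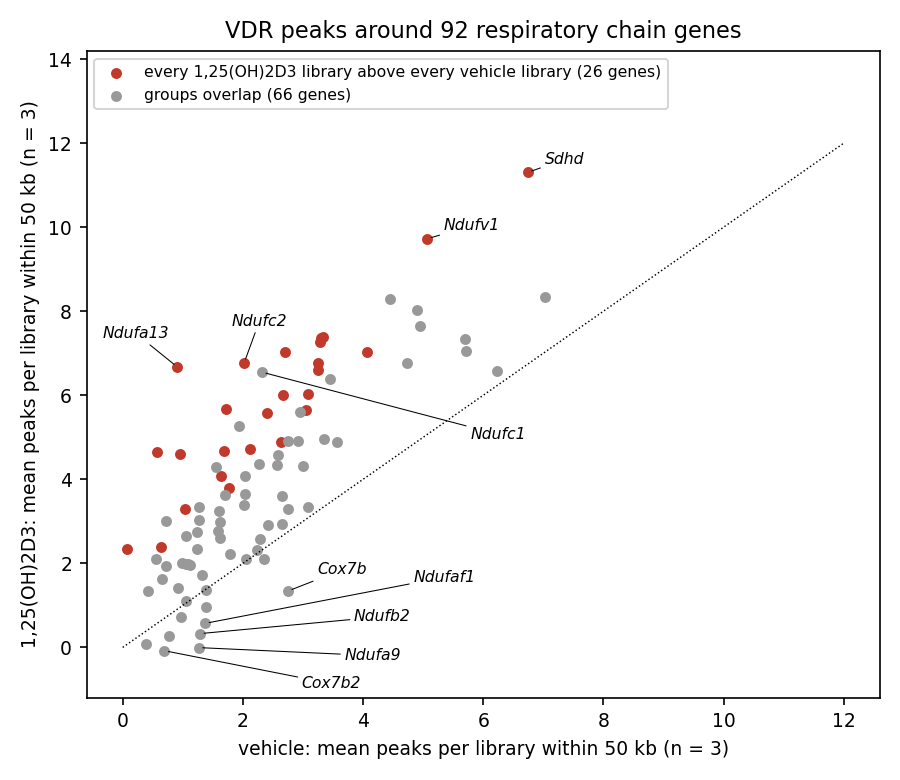
Mean number of VDR peaks per library within 50 kb of each of 92 respiratory chain genes with vehicle (x axis) and hormone, 1,25(OH)2D3 (y axis), n = 3 libraries each; points are shifted at random by at most 0.12 to part equal values, and the dotted line marks equal counts. Of the 92 genes 78 lie above equality, and at the 26 red genes every hormone library exceeds every vehicle library.

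Complex II genes had 3.33 ± 0.629 peaks per gene within 50 kb with vehicle and 6.08 ± 1.66 with hormone, the highest means of any complex, and 3 of its 4 genes were without overlap. Sdha had 4, 1 and 4 against 5, 5 and 7, Sdhc 1, 3 and 3 against 4, 4 and 9, and Sdhb 1, 1 and 2 against 1, 1 and 3. Sdhb thus overlapped between the groups while the other 3 did not. ATP synthase genes had 2.65 ± 1.10 and 4.82 ± 0.765 (6 of 17 without overlap, 35.3%), and complex III 2.08 ± 0.887 and 4.13 ± 0.661 (3 of 8, 37.5%). Complex IV had 2.33 ± 1.08 and 3.72 ± 0.674 (5 of 18, 27.8%), and complex I 2.03 ± 1.25 and 3.82 ± 0.577 (9 of 38, 23.7%). All protein-coding genes had 1.94 ± 1.33 and 3.21 ± 0.705, and 16.0% of them were without overlap. Each spread is the SD with n = 3. The differences between complexes were not tested.

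Other genes on which the chain depends were counted in the same way. For each call the share of all genes was 34.0% in some library, 12.6% in all 3 hormone libraries, 2.63% in all 6 and 3.53% hormone-only. Of 26 assembly factors found, 17 (65.4%) had a promoter peak in some library, 11 (42.3%) had it in all 3 hormone libraries and 4 (15.4%) were hormone-only: Cox18, which inserts a complex IV subunit, Lrpprc, which stabilises mitochondrial mRNAs, Oxa1l, the inner membrane insertase, and Atpif1, the inhibitor of ATP synthase. None had it in all 6. Among 14 electron carrier and ubiquinone genes, 12 (85.7%), 6 (42.9%) and 2 (14.3%) did for the same calls, and Pdss1, which makes the ubiquinone side chain, had it in all 6. The cytochrome c gene Cycs had it in hormone replicate 2 only. Of 13 citrate cycle genes, 10 (76.9%) had a promoter peak, and 4 (30.8%) had it in all 6 libraries, among them Cs (citrate synthase), Ogdh and Sucla2. None of the 13 was hormone-only, while Idh3a and Suclg2 had it in hormone replicates 2 and 3 and Idh3g in hormone replicate 3, without vehicle.

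Among 15 regulators of mitochondrial biogenesis, 8 (53.3%) had a promoter peak in some library and 6 (40.0%) in all 3 hormone libraries. Gabpb1, a subunit of nuclear respiratory factor 2, and the coactivator gene Ppargc1a were hormone-only. The orphan receptor gene Esrra had it in vehicle replicates 2 and 3 as well, Yy1 in vehicle replicate 1, Tfb2m in vehicle replicate 2 and Polrmt, the mitochondrial RNA polymerase, in vehicle replicate 3. Nrf1, Gabpa and Ppargc1b had none. The Atp5j region chr16:84836434-84836809 does lie in an intron of Gabpa, but not within 1 kb of a start of Gabpa. Within 50 kb, Esrra had 2, 4 and 5 peaks with vehicle and 10, 11 and 9 with hormone, and Ppargc1a had 8, 8 and 17 against 11, 19 and 21.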

How the data were processed

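VDR ChIP-seq peak lists of 3 vehicle and 3 hormone (1,25(OH)2D3) libraries were used, grouped by title. Bowtie and HOMER are named in the submitters' processing notes; their versions are not given in the sources used here. Per the file headers, the authors called peaks in each library alone, with the input as reference, at a false discovery rate limit of 0.001 and at least 4-fold over the input and over the surrounding 10 kb, with a Poisson p limit of 0.0001. Deposited peak starts and ends are positions on mm9, and the deposited score is 1 for every peak, so presence was analysed and list order described. The lists record total tags per library, 15991198 to 68560701, and no tag counts per peak, so intervals for single peaks cannot be given.

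Genes came from GENCODE mouse version 1 (Ensembl 65, NCBI 37, which is mm9), and sequences from the NCBI 37 genome. Peak centres within 1 kb of any annotated start, or within 50 kb of the gene body, were counted per gene and library with Python 3.11.15, NumPy 2.4.6, pandas 2.3.3 and pysam 0.24.0. Gene identifiers sharing a symbol within 100 kb were joined, so the 92 genes cover 93 identifiers. Windows of 300 bases were searched for motifs. The counting was tested on simulated data. The values of 2 genes are not reported here, though the counts include them. The input has no peak list and entered no comparison. The RefSeq promoter table, on another build, was not used.

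Named by rule were genes with a promoter peak in all 6 libraries, those with it in all 3 hormone libraries and no vehicle library, the 5 genes with the largest and the 5 with the lowest difference within 50 kb, Sdha to Sdhd, and the tissue forms of complex IV with their partners. No member lacked peaks within 50 kb in every library. Other genes are named to account for the counts per complex or list, or were chosen after their values were seen. Members, lists, rules and motifs were chosen with earlier results of these data known, so no p is given over the list. Alternatives were lists of equal length, shorter lists, other windows and overlaps, a replicate block, leaving out libraries and leaving out shared promoters.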

Additional observations from a re-analysis of the deposited data

How the results depend on the processing

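The differences between groups in promoter share and in mean peaks within 50 kb kept their direction in every alternative run. The other checks count genes or libraries for a single pattern, so they could not show a reversal. Of the checks of the main results, 54 of 74 stayed within the spread or within 1.5 times. Among the 54, the replicate block leaves the hormone-only count and the difference in mean peaks the same by definition, so those checks could not move. Of the checks of the named genes, 13 of 14 were unchanged. The 14th was Ndufa11, in 2 rather than 3 hormone libraries when peaks had to overlap by 50%. With 8756 peaks per list the difference in promoter share was 11.6 rather than 27.9 percentage points, genes with a promoter peak in all 3 hormone and no vehicle library numbered 4 rather than 8, genes without overlap within 50 kb 5 rather than 26, and the difference in mean peaks 0.178 rather than 1.78. With the first 75% of each list 17 genes were without overlap. A 10 kb window gave 15 genes and a difference of 0.540. Without shared promoters 3 rather than 6 genes had the peak in all 6 libraries and 2 were hormone-only. With replicates 1 and 2 alone, added after seeing the data, 15 genes were hormone-only and 63 were without overlap within 50 kb. With the deep replicate 3 alone these were 25 and 55, and 26 genes had the promoter peak in both libraries. Called genes were counted among respiratory chain genes alone in these alternatives. The shares of all protein-coding genes given above hold for the main setting only. Fewer libraries per group make such calls easier to meet for any gene.

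Leaving out 1 library at a time gave a difference in share of 24.3 to 33.0, 6 to 12 genes with the peak in every library (12 without vehicle replicate 1, 10 without vehicle replicate 2), 8 to 15 hormone-only (15 without vehicle replicate 3, 14 without hormone replicate 1), 26 to 62 without overlap within 50 kb (62 without vehicle replicate 3) and a mean difference of 1.31 to 2.45 peaks. A replicate block, which asks that hormone exceed vehicle within each replicate number, gave 47 genes within 50 kb. These gene counts, too, have no share of all genes beside them. Same-numbered libraries correlated at 0.0953, 0.117 and 0.141 in their deviations from the group mean over 20127 genes, and others at -0.0955 to 0.000779. Each library thus correlated best with its own number, a hint from the data only. Deviations from a group mean depend on each other, and replicate 3, at 0.141, was the deep library of both groups. The numbers were not taken as pairs. Depth limits absence: a gene without a peak in the libraries of 15991198 to 19733260 tags may be below detection.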

Other observations

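The mitochondrial genome, which encodes the other subunits of the chain, had a peak at its end in 5 of the 6 libraries. It started between bases 16061 and 16068 and ended at base 16299, the last of the chromosome, and was first in its list in all 3 vehicle libraries and in 1,25(OH)2D3 replicates 1 and 3. No such peak was listed in 1,25(OH)2D3 replicate 2. These peaks entered no count per gene. They are part of the number of peaks per library, of the shortened lists and of the ranking behind the list positions.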
